A study of Sus scrofa domesticus with 8 samples.

Results

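A set of genes that mark macrophages and other leukocytes was followed through 144 h of culture of granulosa cells, which surround the oocyte in the ovarian follicle, taken from pigs. The genes were C1QB, C1QC, FCER1G, CD53, CD14, LYZ and CSF1R, 7 of the 10904 genes that could be named on the array, and all 7 had a feature. A gene was taken from the platform annotation by its symbol, also where the annotation repeats that one symbol, as it does for CSF1R. C1QB and LYZ had 2 features each, and the one with the higher mean over the 8 arrays stands for the gene. The groups were cells before culture (0 h) and cells after 48 h, 96 h and 144 h, with 2 arrays each. All groups shared their source, 43 crossbred Landrace gilts whose median age was 170 days, and the cultured groups shared a DMEM medium with 2% fetal bovine serum at 37 °C. No label ties an array to an animal, a pool or a culture dish, so a p-value here is set by how far paired arrays of a time differ, and that spread may be technical. No batch is labelled either, and a batch that followed the time points cannot be told apart from time.

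Macrophages sit in the wall of the ovarian follicle and increase in the tissue around ovulation and in the corpus luteum, where they take up dying cells. C1QB and C1QC encode chains of C1q, which starts the classical complement pathway and is made largely by macrophages. FCER1G encodes the gamma chain that carries the signal of several Fc receptors, and CD53 is a tetraspanin of the leukocyte surface. CD14 is the co-receptor that hands lipopolysaccharide to TLR4, LYZ encodes the bacterial wall-cutting enzyme lysozyme, and CSF1R is the receptor through which CSF1 and IL34 keep macrophages alive. CD14 and lysozyme are also made by some cells that are not leukocytes.

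The values are log2 intensities after robust multi-array averaging (RMA), in which one unit is a doubling, and levels of different genes on this scale cannot be ranked. The 8 arrays had medians between 4.52 and 4.63 and lower quartiles between 3.13 and 3.25, and all 7 genes lay above the lower quartile on every array. No detection call was available, so a level near the lower quartile is not shown to lie above background. The arrays of a time agreed least at 144 h, where the difference between array 2 and array 1 had an SD of 0.382 over all features, against 0.162 to 0.265 at the other times. Several of the 7 genes were among the features that disagreed, so calls of the 7 genes that depend on the 144 h arrays are given with and without them. Counts of other genes that move by over 1.5 times are treated likewise. Where 1 array was left at 144 h, the way such a count moved is described in place of the count. A gene below the lower quartile in a group has a difference there that may be understated. Granulosa genes were present at 0 h, with HSD17B1, which makes estradiol, at 10.78 and 10.90 and the hormone gene AMH at 5.43 and 5.63. Of 9 measured granulosa markers, 9 were called lower against 0 h at 144 h, and of 9 theca and stromal markers 7 were called higher and 1 lower, beside 15.4% of all features higher and 16.7% lower. FSHR, CYP19A1, FOXL2 and INHA were without a named feature, hence not analysed here.

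C1QB, C1QC, FCER1G and CD53 were 4.53-fold to 7.85-fold lower at 96 h than at 0 h and 3.42-fold to 5.15-fold lower at 144 h. CD14 was 1.69-fold higher at 96 h. LYZ was 3.36-fold higher at 96 h by its brighter feature and 1.07-fold by the other, which was not called there. CSF1R had the same order of times as C1QB, C1QC, FCER1G and CD53, was lower by no more than 0.52 on the log2 scale at any time against 0 h, and did not pass the test over the 4 times (adjusted p = 0.097, limma's moderated F test). The other 6 genes passed that test, as did 47.5% of all features. Which cells gave these signals was not measured in such bulk samples. Fewer leukocytes, less RNA per leukocyte and a change in other cells cannot be told apart.

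**Figure D1:**
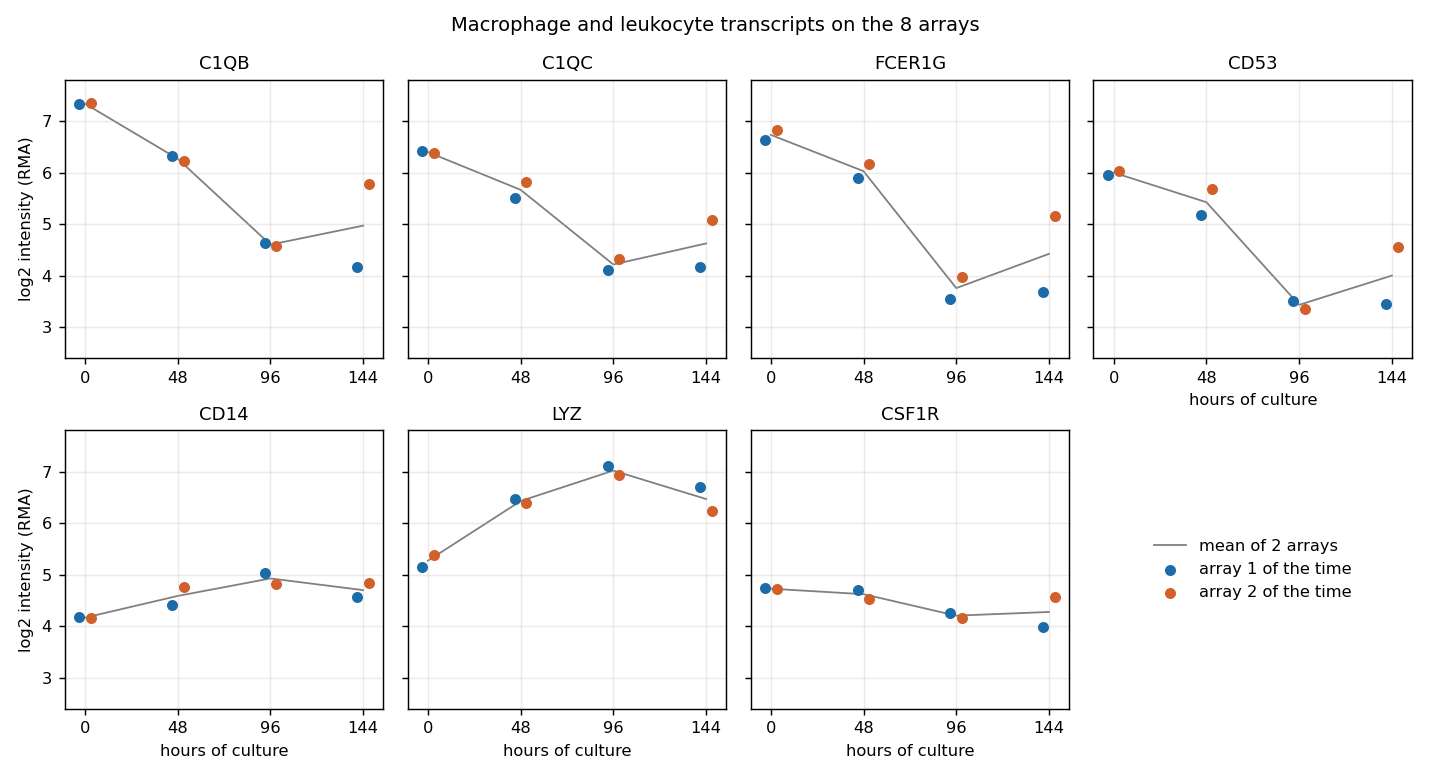
Log2 intensity (RMA) of the 7 genes against hours of culture, with a point for each of the 2 arrays of a time and a line through their means. C1QB, C1QC, FCER1G and CD53 are highest at 0 h and their 144 h arrays stand apart, while LYZ and CD14 are lowest at 0 h.

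C1QB had log2 intensities of 7.32 and 7.35 at 0 h, 6.31 and 6.22 at 48 h, 4.64 and 4.57 at 96 h, and 4.17 and 5.77 at 144 h. Its arrays fell into separate steps up to 96 h, whereas the 144 h arrays lay on either side of the 96 h level. C1QB was lower by 2.73 ± 0.42 (SE) at 96 h than at 0 h (n = 2 arrays per time, limma adjusted p = 0.000956) and lower by 2.37 ± 0.42 at 144 h than at 0 h (limma adjusted p = 0.00294). Between 96 h and 48 h the difference was -1.67 ± 0.42 (limma adjusted p = 0.0188). The other C1QB feature gave the same order of times, with differences from 0 h of -0.61 at 48 h, -2.42 at 96 h and -2.09 at 144 h. That feature read 2.93 and 3.28 at 144 h, lay below the lower quartile on 3 arrays, and was called lower already at 48 h (limma adjusted p = 0.0136).

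C1QC had 6.41 and 6.38 at 0 h, 5.51 and 5.82 at 48 h, 4.10 and 4.33 at 96 h, and 4.17 and 5.08 at 144 h. The levels stepped down over the first 3 times without overlap, and again only the second 144 h array lay clearly above the 96 h arrays. The difference was -2.18 ± 0.27 at 96 h (limma adjusted p = 0.000277) and -1.77 ± 0.27 at 144 h (limma adjusted p = 0.00125), both against 0 h. C1QA, the third chain of C1q, is named after its values were seen. It had 6.64 and 6.66 at 0 h, 6.27 and 6.77 at 48 h, 5.81 and 5.71 at 96 h, and 4.94 and 6.04 at 144 h. C1QA was lower by 0.89 ± 0.32 at 96 h than at 0 h (limma adjusted p = 0.0564) and lower by 1.16 ± 0.32 at 144 h (limma adjusted p = 0.0248). The 3 genes lie next to each other, in the order C1QA, C1QC, C1QB, in the Sscrofa11.1 assembly. Whether C1QA differed from C1QB and C1QC in its change was not tested.

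FCER1G had 6.64 and 6.82 at 0 h, 5.89 and 6.16 at 48 h, 3.55 and 3.97 at 96 h, and 3.69 and 5.16 at 144 h. Its 96 h difference from 0 h, -2.97 ± 0.40, was the largest among the 7 genes (limma adjusted p = 0.000518), and most of it, -2.27 ± 0.40, lay between 96 h and 48 h (limma adjusted p = 0.00416). At 144 h it was lower than at 0 h by 2.31 ± 0.40 (limma adjusted p = 0.00289). TYROBP, also known as DAP12, encodes a related signalling adaptor. It had 6.44 and 6.54 at 0 h, 6.36 and 6.44 at 48 h, 4.44 and 4.16 at 96 h, and 5.09 and 5.70 at 144 h. TYROBP differed by -0.09 ± 0.20 at 48 h from 0 h (limma adjusted p = 0.792). It was lower by 2.10 ± 0.20 at 96 h than at 48 h (limma adjusted p = 0.000205) and higher by 1.09 ± 0.20 at 144 h than at 96 h (limma adjusted p = 0.00644).

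CD53 had 5.96 and 6.04 at 0 h, 5.17 and 5.68 at 48 h, 3.51 and 3.35 at 96 h, and 3.45 and 4.55 at 144 h. Its 96 h arrays and the first 144 h array came close to the lower quartile. CD53 was lower by 2.57 ± 0.32 at 96 h (limma adjusted p = 0.000333) and by 2.00 ± 0.32 at 144 h (limma adjusted p = 0.00189) than at 0 h. Other tetraspanins, a family of membrane proteins found in most cells, were mostly called higher or not called. Of 11 measured, 5 were called higher and 2 lower at 96 h against 0 h, beside 19.0% and 22.3% of all features. At 144 h 6 were called higher than at 0 h, beside 15.4% of all features, among them TSPAN12 (1.94 ± 0.13), TSPAN9 (1.79 ± 0.15), CD151 (1.32 ± 0.15) and the endosomal and lysosomal CD63 (1.30 ± 0.10), and none was called lower, also at an unadjusted p below 0.05 in limma. The median of the 11 was 0.66, beside -0.03 for all named genes.

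LYZ went the other way. It had 5.15 and 5.39 at 0 h, 6.46 and 6.40 at 48 h, 7.10 and 6.94 at 96 h, and 6.70 and 6.24 at 144 h. Every cultured array lay above both 0 h arrays, and LYZ was called higher at 48 h (1.16 ± 0.17, limma adjusted p = 0.00138), 96 h (1.75 ± 0.17, limma adjusted p = 7.99e-05) and 144 h (1.20 ± 0.17, limma adjusted p = 0.000942). The other LYZ feature disagreed about the middle of the culture, with 4.00 and 3.84 at 0 h, 5.81 and 5.72 at 48 h, 4.08 and 3.95 at 96 h, and 4.64 and 5.47 at 144 h. By that feature LYZ was higher at 48 h by 1.85 ± 0.24 (limma adjusted p = 0.000672) and at 144 h by 1.13 ± 0.24 (limma adjusted p = 0.00726), but at 96 h the difference was 0.10 ± 0.24 (limma adjusted p = 0.792). With the mean of both features, LYZ was lower at 96 h than at 48 h, by 0.58 ± 0.12 (limma adjusted p = 0.00746), where the brighter feature alone was higher by 0.59 ± 0.17 (limma adjusted p = 0.0333). The 2 features carry the same gene symbol and gene identifier, so which of them follows lysozyme mRNA at 96 h cannot be told from the table.

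**Figure D2:**
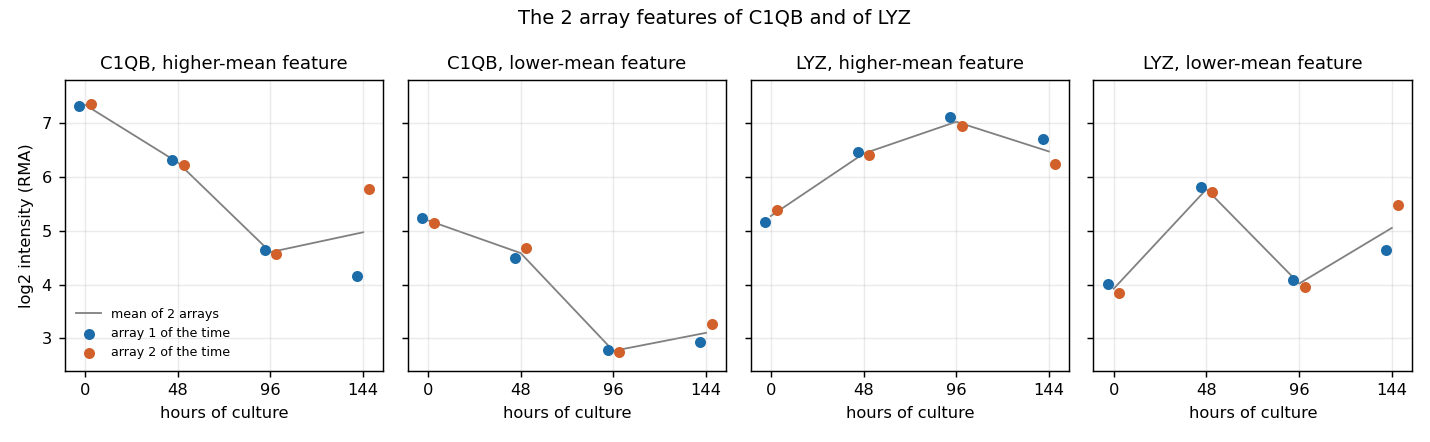
Log2 intensity (RMA) against hours of culture for both features of C1QB and both features of LYZ, with a point per array and a line through the means of 2 arrays. The C1QB features share their order of times, while the LYZ features differ at 96 h, with 7.10 and 6.94 on one and 4.08 and 3.95 on the other.

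CD14 had 4.18 and 4.15 at 0 h, 4.41 and 4.77 at 48 h, 5.03 and 4.83 at 96 h, and 4.56 and 4.84 at 144 h. All cultured arrays lay above the 0 h arrays, by small amounts. The difference was 0.42 ± 0.16 at 48 h (limma adjusted p = 0.0863), 0.76 ± 0.16 at 96 h (limma adjusted p = 0.00546) and 0.53 ± 0.16 at 144 h (limma adjusted p = 0.0356). The call at 96 h was lost without 96 h replicate 1, and the call at 144 h without either 0 h array, either 96 h array or 144 h replicate 2. Both calls were also lost where a fold of at least 2 was asked for. The call at 144 h was lost too at an adjusted p below 0.01. It was also lost with only the 4 arrays compared (limma adjusted p = 0.0618) and without the 96 h arrays (limma adjusted p = 0.0582). CD14 works with TLR4 and LY96 (MD-2), the protein that binds lipopolysaccharide for TLR4. LY96 rose in culture, with 2.94 and 2.73 at 0 h and between 5.92 and 6.33 on all 6 cultured arrays, and it was called higher at 144 h than at 0 h (limma adjusted p = 1.39e-06). Its 0 h arrays lay below their lower quartiles, so no size is given. TLR4, named after its values were seen, was higher by 0.60 ± 0.17 at 48 h, 1.00 ± 0.17 at 96 h and 0.79 ± 0.17 at 144 h. CD180, a TLR4-like receptor of B cells and macrophages, fell by 2.45 ± 0.28 at 48 h, and TRIL, a TLR4 accessory protein, fell by 2.08 ± 0.14. Of 14 measured genes of lipopolysaccharide sensing other than CD14, 5 were called higher and 3 lower at 48 h, beside 15.2% and 14.8% of all features, and 6 higher and 3 lower at 144 h, beside 15.4% and 16.7%. The share called lower was near that of all features. The median at 144 h was 0.38. Without the 144 h arrays 7 were called higher and 3 lower at 48 h, beside 5093 and 5165 of the 27558 features.

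CSF1R had 4.74 and 4.72 at 0 h, 4.71 and 4.53 at 48 h, 4.25 and 4.16 at 96 h, and 3.99 and 4.56 at 144 h. Every later array lay below both 0 h arrays, but the differences stayed within 0.52 on the log2 scale. The 96 h difference was -0.52 ± 0.18 (limma adjusted p = 0.0502) and the 144 h difference -0.45 ± 0.18 (limma adjusted p = 0.0994). Without the 144 h arrays the 96 h difference was the same with an SE of 0.10, and CSF1R was then called lower (limma adjusted p = 0.00448), as it was at 96 h against 48 h (limma adjusted p = 0.0172). CSF1, the ligand gene, had 5.47 and 5.77 at 0 h and 5.94 and 6.34 at 144 h, with a difference of 0.52 ± 0.18 (limma adjusted p = 0.0651). SPI1, which encodes the myeloid transcription factor PU.1, was lower at 144 h by 0.95 ± 0.31 (limma adjusted p = 0.0482), a call lost without 144 h replicate 1 and without the 96 h arrays. Of 9 measured genes of colony stimulating factor signalling other than CSF1R, 1 was called higher and 2 lower at 144 h, close to the 15.4% and 16.7% of all features. None was called in either direction without the 96 h arrays, beside 3655 of the 27558 features higher and 3799 lower. The count called lower was smaller without 144 h replicate 1 and larger without replicate 2, as was that of all features.

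At 48 h against 0 h, LYZ was called higher and none of the 7 genes lower in limma, while 4 had an unadjusted p below 0.05, 2 higher and 2 lower. Both 48 h arrays lay below both 0 h arrays for 5 genes and above them for 2, and the same held for 36.0% and 29.8% of all features. The background of called features was 15.2% higher and 14.8% lower. C1QB differed by -1.07 ± 0.42, C1QC by -0.73 ± 0.27, FCER1G by -0.70 ± 0.40 and CD53 by -0.57 ± 0.32 (limma adjusted p from 0.0743 to 0.242). Those SE carry the spread of the 144 h arrays, because the model pools all times. Without the 144 h arrays the same differences had SE between 0.09 and 0.17. All 4 genes were then called lower (limma adjusted p from 0.00014 to 0.0343), beside 5165 of the 27558 features. The share of all features called in either direction became 37.2%. At 144 h the pooling acts the other way, since it takes in the closer arrays of other times. For 144 h against 0 h with only the 4 arrays compared, the SE was 0.49 for C1QB and 0.45 for FCER1G, in place of 0.42 and 0.40.

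At 96 h against 0 h, 4 genes were called lower (C1QB, C1QC, FCER1G, CD53) and 2 higher (CD14, LYZ), beside 22.3% and 19.0% of all features. The median of the 7 was -2.18, beside -0.01 for all named genes. At 144 h against 0 h the same 4 were called lower and the same 2 higher, beside 16.7% and 15.4% of all features. The comparisons with 0 h share the 0 h arrays. Between 96 h and 48 h the 4 genes were called lower, beside 16.0%, and LYZ higher, beside 13.4%. The calls of C1QB and LYZ in that comparison were lost without any one of the 48 h or 96 h arrays. Between 144 h and 48 h only FCER1G (-1.60 ± 0.40, limma adjusted p = 0.0488) and CD53 (-1.42 ± 0.32, limma adjusted p = 0.0325) were called lower, beside 4.32% of features lower and 4.32% higher. Both calls were lost without any one of the 0 h, 48 h or 96 h arrays. Between 144 h and 96 h none of the 7 genes was called in limma, and 1, LYZ, had an unadjusted p below 0.05, against a background of 12.1% of features higher and 10.1% lower. The other LYZ feature was called higher there (1.03 ± 0.24, limma adjusted p = 0.0174), whereas the brighter one differed by -0.55 ± 0.17. In the order of levels for C1QB, C1QC, FCER1G and CD53, lowest at 96 h, then 144 h, 48 h and 0 h, the neighbours 96 h and 144 h and the neighbours 48 h and 0 h were not told apart by the test. For C1QB and C1QC the neighbours 144 h and 48 h were not told apart either (limma adjusted p = 0.109 and 0.0513). The other C1QB feature was called lower at 144 h than at 48 h (-1.48 ± 0.14, limma adjusted p = 0.000803). It was also called lower at 48 h than at 0 h (limma adjusted p = 0.0136).

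**Figure D3:**
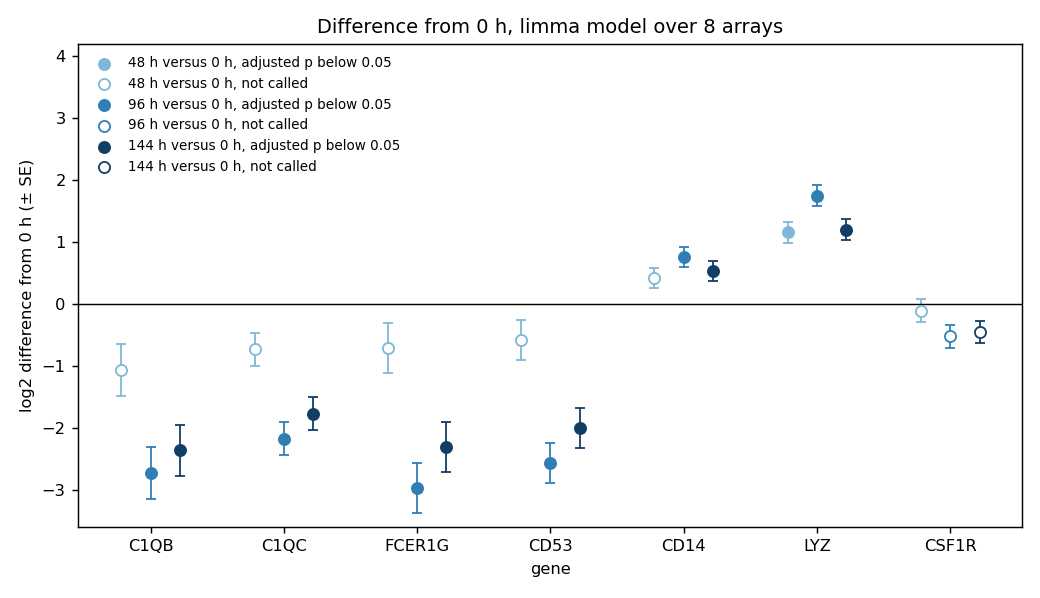
Log2 difference from 0 h of each of the 7 genes at 48 h, 96 h and 144 h, as points with SE from the limma model over 8 arrays (n = 2 arrays per time). Filled points had an adjusted p below 0.05, and open points did not. C1QB, C1QC, FCER1G and CD53 lie below 0, LYZ and CD14 above it, and CSF1R near it.

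The 144 h arrays disagreed on these genes. Array 2 was above array 1 by 1.61 for C1QB, 1.47 for FCER1G, 1.10 for CD53, 0.91 for C1QC and 0.57 for CSF1R, and below it by 0.47 for LYZ. On the other features of C1QB and LYZ, array 2 was above array 1 by 0.35 and 0.83. So the size for C1QB and the direction for LYZ depended on the feature, and what follows uses the brighter ones. Array 2 was above array 1 by at least 1 for 3 of the 7 genes and for 0.751% of all features. At 0 h, 48 h and 96 h none of the 7 differed by that much in that direction. Without 144 h replicate 2 the 144 h differences from 0 h were -3.17 ± 0.11 for C1QB, -3.04 ± 0.21 for FCER1G, -2.55 ± 0.21 for CD53 and -2.22 ± 0.17 for C1QC. Without 144 h replicate 1 they were -1.56 ± 0.11, -1.57 ± 0.21, -1.45 ± 0.21 and -1.32 ± 0.17 in the same order of genes, so the size at 144 h rests on which array is used. All 4 genes were called lower with either array left out. Against 96 h the array left out also set the call. Without replicate 1 the 4 genes were called higher at 144 h than at 96 h, and C1QB was then higher by 1.17 ± 0.11. Without replicate 2 C1QB was called lower, by 0.44 ± 0.11, and FCER1G, C1QC and CD53 differed by at most 0.07. With 1 array left at 144 h, that array is assumed to vary like the other times.

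Other leukocyte markers also differed between the 144 h arrays. Array 2 was the higher one for 18 of 20 measured macrophage and monocyte markers, with a median difference of 0.27, and for 11 of 11 pan-leukocyte markers, with a median of 0.26. The same array was higher for 7 of 9 granulosa markers (median 0.38) and for 3 of 9 theca and stromal markers (median -0.14), beside a median of 0.02 over all features. The part of either shift in the results at 144 h was not tested.

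**Figure D4:**
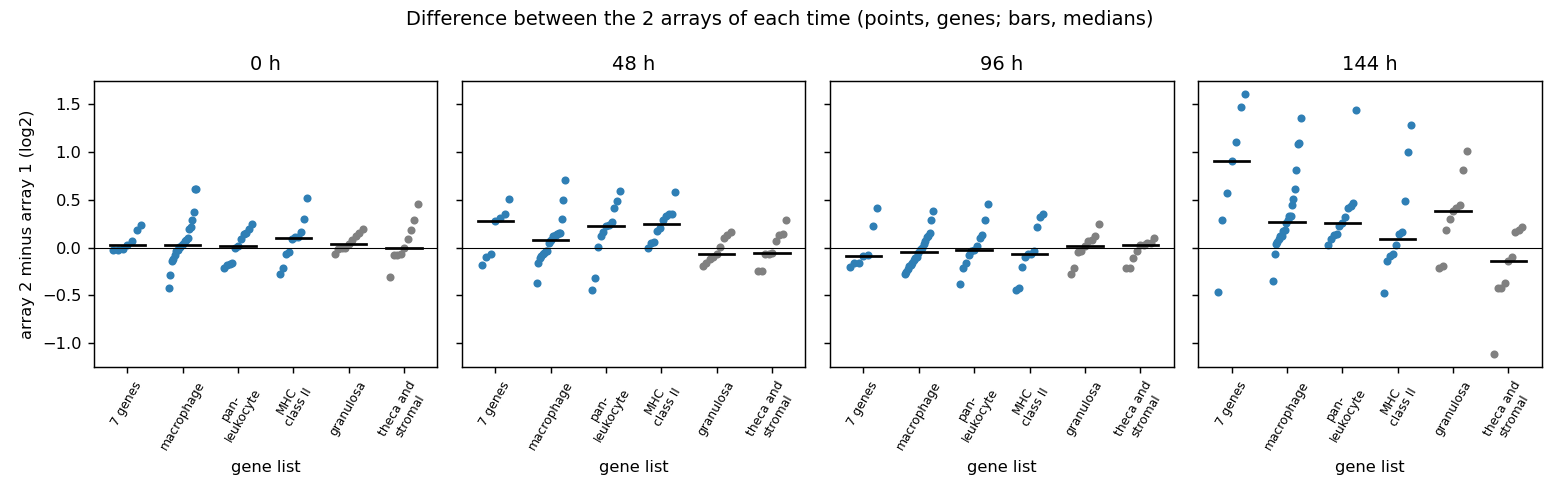
Array 2 minus array 1 (log2) at each time, with a point per gene and a bar at the median, for the 7 genes, the macrophage, pan-leukocyte and MHC class II lists (blue) and the granulosa and theca and stromal lists (grey). The points of the 7 genes lie no higher than 0.51 up to 96 h and reach 1.61 at 144 h.

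Other macrophage genes were called lower too, though not all of them. Of 28 macrophage and monocyte markers, 20 had a feature, and CD68, CD163, MERTK and CX3CR1 were among those not analysed here. C1QA, TYROBP, SPI1, VSIG4 and FCGR1A are counted in this list and again in others. Further lists share genes too, among them VAV1, CD63 and INPP5D. In limma, 4 of the 20 were called lower at 48 h, 11 at 96 h and 10 at 144 h against 0 h, beside 14.8%, 22.3% and 16.7% of all features, so that the 48 h count was near that of all features. Without the 144 h arrays 6 were called lower at 48 h and 13 at 96 h, beside 5165 and 7038 of the 27558 features. In the fit to all arrays none was called higher, also at an unadjusted p below 0.05. Their median was -0.25 at 48 h, -0.79 at 96 h and -0.62 at 144 h, beside -0.04, -0.01 and -0.03 for all named genes. Those called lower at 48 h were FOLR2, a folate receptor of tissue macrophages (-0.94 ± 0.16), the scavenger receptor genes MSR1 (-0.87 ± 0.19) and STAB1 (-0.79 ± 0.13), and MRC1, the mannose receptor gene (-0.55 ± 0.14). At 144 h VSIG4, a complement receptor gene, differed by -1.70 ± 0.25, MSR1 by -1.69 ± 0.19, MPEG1, which encodes the pore-forming perforin-2, by -1.49 ± 0.36 and MRC1 by -1.23 ± 0.14. VSIG4, MSR1 and MRC1 lay below the lower quartile on 1 or both of the 144 h arrays. FOLR2 was lower in the middle of the culture, with 6.59 and 6.66 at 0 h, 5.63 and 5.75 at 48 h, 4.44 and 4.73 at 96 h, and 6.49 and 6.15 at 144 h. ITGAM, FCGR1A, AIF1 and ADGRE1 lay below the lower quartile on all 0 h arrays, and so were dim before culture. In all, 4 and 5 of the 20 markers were below it at 0 h and 10 and 7 at 144 h. The summed linear intensity of the 20 markers was 598 and 631 at 0 h, 474 and 522 at 48 h, 281 and 275 at 96 h, and 316 and 408 at 144 h.

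Genes shared by most leukocytes were called lower mainly at 96 h and 144 h. Of 11 measured pan-leukocyte markers, 1 was called lower at 48 h, 9 at 96 h and 7 at 144 h against 0 h in limma, beside 14.8%, 22.3% and 16.7% of all features. None was called higher, also at an unadjusted p below 0.05. The one at 48 h was PLEK (-0.47 ± 0.12), the pleckstrin gene, which lay below the lower quartile on all 8 arrays. Without 144 h replicate 1 the count at 144 h was much smaller, whereas the number of all features called lower was only slightly smaller. PTPRC, which encodes the leukocyte surface protein CD45, had 4.53 and 4.35 at 0 h, 3.99 and 4.58 at 48 h, 3.62 and 3.75 at 96 h, and 3.52 and 3.67 at 144 h. Its 48 h arrays overlapped those of 0 h, and it was lower by 0.85 ± 0.19 at 144 h (limma adjusted p = 0.0099). LCP1, which bundles actin in leukocytes, differed by -0.78 ± 0.21 and EVI2B by -0.81 ± 0.16 at 144 h. SRGN, the granule proteoglycan serglycin, had 6.18 and 6.33 at 0 h, 6.63 and 6.31 at 48 h, 2.97 and 3.26 at 96 h, and 4.35 and 5.80 at 144 h. It was called lower at 96 h (limma adjusted p = 0.000319). Its 144 h difference from 0 h, -1.18 ± 0.39, did not pass (limma adjusted p = 0.0524).

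Markers of other blood cells were dim in part and were called in both directions. Of 17 T and NK cell markers, 2 were called lower and 1 higher at 144 h, beside 16.7% and 15.4% of all features. Neither share exceeded that of all features. Between 6 and 9 of the 17 markers lay below the lower quartile on each array. Cytotoxic granule genes went in opposite directions at 144 h, with NKG7 lower by 1.92 ± 0.26 and GZMA, the granzyme A gene, higher by 1.52 ± 0.14. CD2, a T and NK cell adhesion gene, was lower by 1.24 ± 0.13 at 144 h and lay below the lower quartile on all 6 cultured arrays, and the chemokine gene CCL5 was higher by 0.67 ± 0.14 at 48 h, while CD3D, CD3E, CD3G and CD4 were not called at any time against 0 h. Among 4 measured B cell markers none was called at 48 h or 144 h against 0 h in limma, and none had an unadjusted p below 0.05 at those times. At 96 h CD79B was called higher (0.49 ± 0.13) and BLNK lower (-0.68 ± 0.22), both named after their values were seen. Over all features 19.0% were called higher and 22.3% lower at 96 h. Among 6 neutrophil markers, the gelatinase gene MMP9 rose at 48 h (2.58 ± 0.30), and S100A12 was higher at 144 h (0.95 ± 0.24). The shares of all features called higher were 15.2% at 48 h and 15.4% at 144 h. FCER1A and MS4A2, the other chains of the mast cell IgE receptor that FCER1G serves, lay below the lower quartile on every array and were not called. Of 5 mast cell and basophil markers, KIT (-0.98 ± 0.17) and HDC (-2.95 ± 0.26) were called lower at 48 h, beside 14.8% of all features. KIT and the histamine-forming enzyme gene HDC are also known outside mast cells, and their intensities at 0 h were 9.94 and 9.97 for KIT and 9.85 and 9.91 for HDC.

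**Figure D5:**
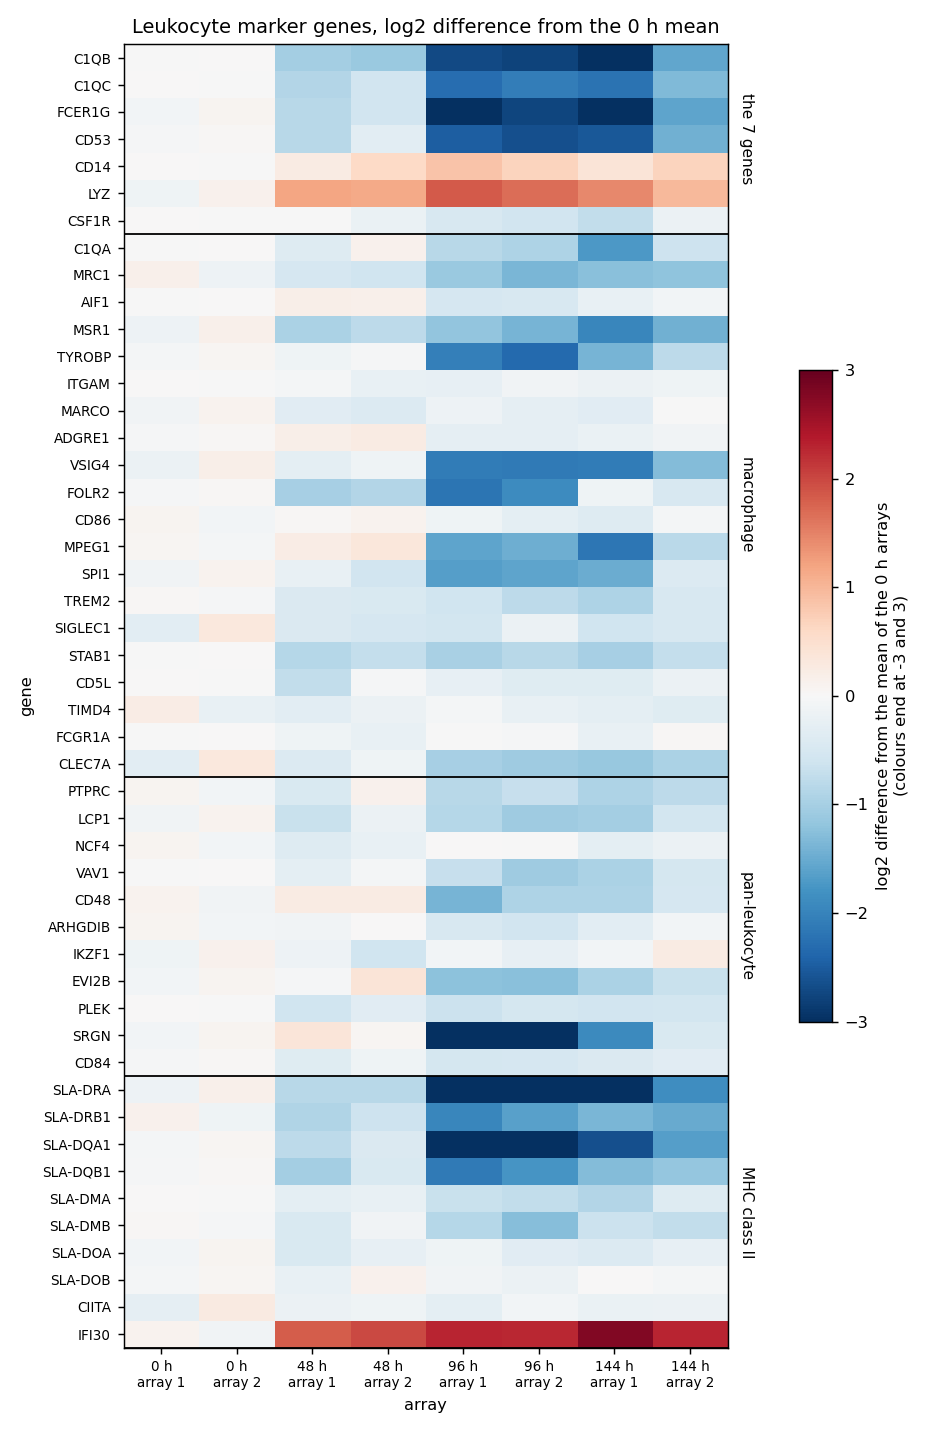
Log2 difference from the mean of the 0 h arrays on each of the 8 arrays (columns) for the 7 genes, 20 macrophage and monocyte markers, 11 pan-leukocyte markers and 10 genes of MHC class II presentation (rows), with blue lower and red higher. Many rows turn blue at 96 h and are paler on 144 h array 2, while LYZ, CD14 and IFI30 are red.

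Genes of antigen presentation by MHC class II, a task of macrophages and other antigen-presenting cells, were largely called lower at 96 h and 144 h. SLA-DRA, the pig DR alpha chain gene, had 7.75 and 8.05 at 0 h, 7.07 and 7.07 at 48 h, 3.50 and 3.41 at 96 h, and 4.74 and 6.02 at 144 h. Its difference from 0 h was -4.44 ± 0.35 at 96 h (limma adjusted p = 2.36e-05) and -2.52 ± 0.35 at 144 h (limma adjusted p = 0.000769). SLA-DQA1 followed, with -2.14 ± 0.30 at 144 h, and SLA-DRB1, with -1.44 ± 0.17. Of 10 measured genes, 6 were called lower and 1 higher at 144 h, beside 16.7% and 15.4% of all features, and also 6 lower and 1 higher at 96 h, beside 22.3% and 19.0%. The one called higher was IFI30, a lysosomal thiol reductase that prepares antigens, which rose by 1.90 ± 0.17 at 48 h and 2.53 ± 0.17 at 144 h. These pig genes belong to a family of similar copies, so probes may read more than 1 of them.

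Lysosomal genes, read beside LYZ, were called higher more often than lower. Of 10 measured, 6 were called higher and 1 lower at 48 h, beside 15.2% and 14.8% of all features, and 4 higher and 2 lower at 144 h, beside 15.4% and 16.7%. The shares called lower were near those of all features. The protease gene CTSH rose by 2.01 ± 0.16, the cholesterol carrier gene NPC2 by 1.83 ± 0.10 and the acid lipase gene LIPA by 0.99 ± 0.11 at 144 h. The 2 called lower at 144 h were the cathepsin gene CTSZ (-0.94 ± 0.12) and the acid phosphatase gene ACP5 (-0.95 ± 0.13), both named after their values were seen. Many lysosomal products, though not all, are made by most cell types.

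Complement genes beyond C1QB and C1QC were called in both directions. Of 19 measured, C1QA included, 3 were called higher and 4 lower at 48 h, 3 higher and 8 lower at 96 h, and 5 higher and 6 lower at 144 h. Over all features the shares were 15.2% and 14.8% at 48 h, 19.0% and 22.3% at 96 h, and 15.4% and 16.7% at 144 h, so the counts at 48 h and those higher at 96 h were near them. Without the 96 h arrays 1 was called lower at 48 h, beside 3304 of the 27558 features. CLU, which encodes the complement inhibitor clusterin, rose by 3.04 ± 0.12 and CFI, a protease that inactivates C3b, by 2.24 ± 0.12 at 144 h. C7, a part of the membrane attack complex, fell by 2.88 ± 0.21 at 144 h, and C6 of the same complex rose by 2.35 ± 0.14 at 48 h. C1QTNF3, a C1q-related secreted protein, was called higher at 144 h (2.81 ± 0.77), where its arrays read 7.37 and 4.33. CFI and C1QTNF3 lay below the lower quartile on both 0 h arrays, and C7 on both 96 h arrays.

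Signalling partners of FCER1G were called in both directions. Of 14 measured genes of Fc receptor and ITAM signalling other than FCER1G, 2 were called higher and 4 lower at 144 h, beside 15.4% and 16.7% of all features. The share called higher was near that of all features. Without 144 h replicate 1 both counts were smaller, whereas the numbers over all features were only slightly smaller. Without replicate 2 fewer were called higher and more lower, while more of all features were called in both directions. The kinase gene LYN rose by 1.65 ± 0.15, and the adaptor genes LCP2 and VAV1 differed by -0.67 ± 0.22 and -0.74 ± 0.19. SYK, the kinase that binds the phosphorylated gamma chain, is named after its values were seen and differed by 0.23 ± 0.14 at 144 h (limma adjusted p = 0.256), with all 8 arrays below the lower quartile.

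Genes with the most similar course were ranked by Pearson's r with the mean of the 7 genes, each centred on its own mean, over the 8 arrays. The search ran over 3034 genes whose time means spanned at least 1 on the log2 scale. The values are descriptions, since the arrays share 4 times and the 7 genes do not share one course. The nearest were AKR1CL1 (r = 0.986), ANGPTL4, a secreted lipase inhibitor (r = 0.984), VSIG4 (r = 0.983), STXBP2, which serves granule release (r = 0.976), CMIP (r = 0.974) and CD209, a lectin of dendritic cells and macrophages (r = 0.971). CD209 had 7.02 and 7.33 at 0 h, 5.61 and 6.37 at 48 h, 4.39 and 3.74 at 96 h, and 3.74 and 5.15 at 144 h. Gene by gene, the top 2 were PRLR and ANGPTL4 for C1QB, NKG7 and MOGS for C1QC, AKR1CL1 and CMIP for FCER1G, and SLA-DQA1 and VSIG4 for CD53. They were SYTL5 and CACNG4 for CD14, FUT8 and FAM111B for LYZ, and CSDC2 and ANGPTL4 for CSF1R, with r between 0.953 and 0.993 over all these pairs. Among the 7 genes, r was 0.972 to 0.993 between any 2 of C1QB, C1QC, FCER1G and CD53, 0.901 to 0.950 between CSF1R and each of those 4, and -0.897 between LYZ and C1QB.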

How the data were processed

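The deposited table held log2 intensities for 27558 features on 8 arrays, made by the authors and named as RMA in the submitters' processing notes. That method subtracts background, gives all arrays one distribution and summarises probes, and so hides a shift common to most transcripts. The software version is not given in the sources used here. Biotin-labelled RNA was hybridised to Affymetrix whole-transcript arrays, per the labels' protocols. Features were named through GEO's platform annotation: 11735 had 1 symbol, 239 repeated 1 symbol, 373 held several and 15211 none, and for 7 an old symbol was replaced by way of its gene identifier.

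R 4.3.3 and limma 3.58.1 gave each feature 1 mean per time from the full set of arrays (4 residual degrees of freedom, prior 3.98). P-values were two-sided, adjusted by Benjamini-Hochberg over all features within a comparison, and called below 0.05. A run on simulated data checked only that planted differences came back on average. It gave a feature the same spread at every time, so it does not bear on the wider spread at 144 h. The number of arrays limits the precision.

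The 7 genes and the gene lists were chosen with earlier results of these data known. Named genes follow a rule: all 7 genes, up to 4 measured genes of a list with the largest difference at 48 h and at 144 h against 0 h, and the most similar genes. C1QA, TLR4, SYK and the dim macrophage and T cell markers named lie outside it and were chosen after their values were seen. Alternatives were other normalizations, a filter on dim features, other model settings and leaving out arrays. Fits without all 144 h or all 96 h arrays were chosen after seeing the data. No reference sequences were used here.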

Additional observations from a re-analysis of the deposited data

How the results depend on the processing

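Limits come first from the number of arrays, 2 per time, and from signal near the lower quartile, where a difference may be understated. The number of all features called moved between settings too, so a moved count need not be particular to the 7 genes. At 48 h against 0 h, 8260 of the 27558 features were called in the main fit. That number was 8650 with only the 4 arrays compared, 10258 without the 144 h arrays and 6830 without the 96 h arrays. At 144 h against 48 h it was 2381, 825 with only the 4 arrays compared and 1576 without the 96 h arrays. At 96 h and at 144 h against 0 h, C1QB, C1QC, FCER1G, CD53 and LYZ were called under every alternative run, and 5 to 7 of the 7 genes were called at 96 h and 5 to 6 at 144 h when one array was left out. For 48 h against 0 h, 1 gene was called, and 2 with median centring, quantile normalization or cyclic loess (CD14 gained), 2 with the mean of a gene's features (C1QB gained), 4 with only the 4 arrays compared, 1 to 5 leaving out one array, and 5 without the 144 h arrays. For 96 h against 48 h, 5 were called, 3 at an adjusted p below 0.01 and 3 to 6 leaving out one array. For 144 h against 48 h, 2 were called, 3 with median centring, quantile normalization, cyclic loess, dim features left out, eBayes with trend and robust or the replicate block (C1QC gained), 2 with the mean of a gene's features (C1QB gained, FCER1G lost), 0 with only the 4 arrays compared, at an adjusted p below 0.01 or without the 96 h arrays, and 0 to 5 leaving out one array. For 144 h against 96 h, 0 were called, 1 (LYZ) with quantile normalization, cyclic loess or dim features left out, and 0 to 5 leaving out one array.

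The same-numbered arrays of different times deviated together with correlations between -0.04 and 0.19, so the numbers were not shown to pair samples. With the replicate number as a block, 2 genes were called at 48 h against 0 h and 3 at 144 h against 48 h (C1QC gained in both). Over all features the shares called were then 29.9% and 8.42%.

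These differences turned their sign, and the cause was not tested. CSF1R at 48 h against 0 h was 0.051 with cyclic loess. With the mean of its features, LYZ was -0.58 at 96 h and -0.34 at 144 h against 48 h, and 0.24 at 144 h against 96 h. Leaving out one array gave -0.066 to 0.29 for CD14 and -0.19 to 0.27 for LYZ at 144 h against 48 h. At 144 h against 96 h it gave -0.44 to 1.17 for C1QB, -0.045 to 0.86 for C1QC, -0.072 to 1.401 for FCER1G and -0.22 to 0.36 for CSF1R. Counts over all features moved by more than 1.5 times in these cases. At 48 h against 0 h, 8260 were called, 5147 at an adjusted p below 0.01 and 3038 with a fold of at least 2. With that fold, 5147 in place of 11375 were called at 96 h and 3676 in place of 8845 at 144 h against 0 h. At 96 h against 48 h, 8089 were called, 4688 below 0.01, 2669 with the fold and as few as 4198 without one array. At 144 h against 48 h, 2381 were called, 1120 below 0.01, 865 with the fold, 825 with only the 4 arrays compared, 1576 without the 96 h arrays and 1070 to 3879 without one array. At 144 h against 96 h, 6115 were called, 3033 below 0.01, 1710 with the fold and as few as 2437 without one array.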
